A study of Mus musculus with 45 samples.

Results

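Hmga1 and Hmga2 encode the HMGA proteins, small non-histone chromatin proteins that bind the minor groove of AT-rich DNA, and their RNA was followed here through the reprogramming of mouse neural progenitor cells to induced pluripotent stem cells. The 3 genes Hmga1, Hmga1b and Hmga2 were taken by name from the 23575 genes of the deposited gene table. They were chosen by their measured CPM in these libraries (OKMS against OKS by day, the media, and stem cells against progenitors), so their differences in those contrasts are given as descriptions, without a p. Hmga1b is a separate gene without introns on another chromosome, whose RNA is nearly the same as that of Hmga1. It is not the protein isoform called HMGA1b in textbooks, which is a splice form of Hmga1.

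Each HMGA protein carries 3 AT-hooks, short basic motifs that insert into the minor groove, followed by an acidic tail, and bends or unwinds DNA so that other regulators can assemble on it. The genes are typically high in embryonic and dividing cells and low in most differentiated adult cells, Hmga1 being known as a target of Myc and as a chromatin protein of pluripotent cells. Hmga2 is known for its role in neural stem cell self-renewal and growth, and its mRNA is a classic target of the let-7 microRNAs, which bind repeated sites in its long 3′ untranslated region (UTR).

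The series held 45 libraries read on Oxford Nanopore flow cells, of 2 designs that are named here by their flow cell generation. In R9 (22 libraries) poly(A)-enriched RNA was turned into direct cDNA, and in R10 (23 libraries) total RNA was turned into PCR cDNA. All progenitors and reprogramming cells came from the Oct4-GFP reporter embryonic stem cell line O4G, itself derived from line R1, and the factor-carrying lines were stably transfected (OKMS or OKS, the latter without Myc by name) and induced with doxycycline. NPC medium without doxycycline held progenitors of wild-type, OKMS and OKS genotype (4 libraries in R9, 4 in R10). FBS-LIF plus doxycycline held wild-type progenitors for 2 days (1 library in R9, 2 in R10) and the induced lines. For OKMS there were 6 R9 libraries (days 2, 4, 6, 10, 14 and 20) and 5 R10 libraries (days 2, 4, 6, 10 and 18), and for OKS 6 R9 libraries on the same days as OKMS and 3 R10 libraries (days 2, 6 and 18). Induced cells that were later moved to 2i-LIF (LIF with the inhibitors CHIR-99021 and PD0325901, no doxycycline named) were read in R9 for OKMS at days 14 and 20 and OKS at day 20, and in R10 for both systems at day 18. Embryonic stem cells without factors, also kept in 2i-LIF, came from lines O4G and R1 in R9 (2 libraries) and from O4G (2), R1-Clone3 (2) and R1 (3, 1 labelled without an n number) in R10.

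R9 libraries had 448250 to 1391635 reads on genes and R10 libraries 567129 to 4245818. The summed CPM of 8 pluripotency genes was between 10564 and 13243 in R10 stem cells and between 14.1 and 28.0 in R10 progenitors, and the 8 progenitor genes had the reverse order (4.67 to 43.7 against 5156 to 6790), so both groups matched their labels. No label says that libraries of a group came from separate cultures, so every SD and test below measures the spread between libraries, which may be technical.

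Hmga1 lies on chromosome 17 (mm10, 27556497 to 27563674, plus strand, ENSMUSG00000046711.16) and had 26 deposited transcripts. Hmga1b lies on chromosome 11 (120762794 to 120764419, plus strand, ENSMUSG00000078249.5) and had 4. Hmga2 lies on chromosome 10 (120361275 to 120476469, minus strand, ENSMUSG00000056758.14) and had 12. A long-form reference transcript of Hmga1 and the main one of Hmga1b (both GENCODE vM21) carry the same 321 coding bases with 0 mismatches, and over 1602 aligned bases they differ at 3, all after the coding part (99.8% identical). A read of one gene can therefore be placed at the other by very few bases, so both are also given as a sum. The full-length Hmga2 reference has 324 coding bases, and its translation shares 54 residues (50.5%) with that of the long Hmga1 form.

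Hmga1 transcripts come in a long and a short coding form, known as HMGA1a and HMGA1b, which differ by 33 bases (11 residues) between the first and the second AT-hook. The stretch is shown because it separates the transcripts counted below. Capitals mark the 33 bases, at chr17:27559671-27559703 in Hmga1 and chr11:120762991-120763023 in Hmga1b (mm10, both plus strand), and the short form of Hmga1 joins the flanks.
Hmga1, long form: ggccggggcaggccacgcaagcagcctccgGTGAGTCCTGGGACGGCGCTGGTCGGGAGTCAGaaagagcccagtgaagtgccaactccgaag
Hmga1b: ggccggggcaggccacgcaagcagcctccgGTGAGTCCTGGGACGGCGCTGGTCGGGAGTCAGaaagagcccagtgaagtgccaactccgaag
Hmga1, short form: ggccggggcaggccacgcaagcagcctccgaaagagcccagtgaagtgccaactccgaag

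The coding bases of the AT-hook cores are shown for the middle hook of Hmga1 and Hmga2, since this is the DNA-binding motif that both families of RNA encode. Capitals mark the codons of the Arg-Gly-Arg-Pro core, which a search of the translated sequence found 3 times in each.
Hmga1, middle hook: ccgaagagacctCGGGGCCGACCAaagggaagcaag
Hmga2, middle hook: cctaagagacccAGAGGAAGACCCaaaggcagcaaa

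Let-7 sites are the other sequence feature on which Hmga2 is known to turn. Of 1679 mature mouse miRNA names in RefSeq (GRCm38.p6), 11 carry the seed of let-7a, shown in capitals (bases 2 to 8), namely let-7 members, miR-98-5p and miR-1961. The letters CTACCTC, which pair with it, occur 6 times in the Hmga2 reference on the transcript strand, 2 times in its 5′ UTR and 4 times in its 3′ UTR of 2977 bases. They occur 1 time each in the long Hmga1 and the Hmga1b reference. The 4 matches of the 3′ UTR are given with flanks, on the minus strand of chromosome 10 (mm10), since deposited Hmga2 transcripts differed in how many of them they hold.
let-7a-5p: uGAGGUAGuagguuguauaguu
chr10:120364225-120364231: attcaatttCTACCTCagcatca
chr10:120362988-120362994: tcctcaataCTACCTCtgaatgc
chr10:120362550-120362556: tgcaaggaaCTACCTCcacactt
chr10:120361692-120361698: aacacactaCTACCTCttaagtc

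Hmga1 and Hmga1b were lower, and Hmga2 was higher, in progenitors than in stem cells. CPM scale the reads of a gene to a common library total, and the R10 and R9 values are given apart. The summed Hmga1 and Hmga1b level of the 4 R10 progenitor libraries was 19.8 CPM (OKMS), 20.4 CPM (OKS), 51.4 CPM and 27.5 CPM (wild type). In the 7 R10 stem cell libraries it ran from 345 to 460 CPM with a median of 432 CPM. The groups did not overlap, and the means were 29.8 ± 14.9 (SD, n = 4) and 426 ± 38.4 CPM (SD, n = 7). On the log2(CPM + 1) scale the stem cells were higher by 3.90 ± 0.20 (SE, limma) for the sum, by 3.63 ± 0.31 for Hmga1 and by 3.92 ± 0.18 for Hmga1b. In R9 the sum was 16.9 to 26.7 CPM in 4 progenitor libraries and 294 and 330.4 CPM in 2 stem cell libraries, again without overlap.

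Hmga2 went the other way. Its level was 43.9 CPM (OKMS), 31.0 CPM (OKS), 36.2 CPM and 31.0 CPM (wild type) in the R10 progenitors. The R10 stem cells had 1.31 to 7.17 CPM (median 3.63), so that the highest stem cell library lay well under the lowest progenitor library. The difference was −3.0 ± 0.31 (log2 difference ± SE), and −3.46 ± 0.76 in R9, where progenitors had 21.3 to 35.4 CPM, the R1 stem cells 6.52 CPM and the O4G stem cells 0 reads. At the depth of that O4G library 0 reads allow up to 2.84 CPM (3 reads, counting error only). All 3 genes were thus separated without overlap between stem cells and progenitors in R10, a contrast in which 45.8% of the 15415 genes tested were called (adjusted p under 0.05 by limma with Benjamini-Hochberg adjustment and at least 1 log2 unit), so the separation alone does not set them apart. In the R9 contrast 5671 of 15746 genes were called.

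Among the stem cell lines, the R10 sum was 438 and 460 CPM in O4G, 425 and 458 CPM in R1-Clone3, and 345, 425 and 432 CPM in R1. The 345 CPM belonged to the R1 library without an n number, which also had 0.124% of its reads on mitochondrial genes where the other 6 had 1.81 to 2.35%. Without it the difference from progenitors was 3.95 for the sum and −2.89 for Hmga2. Hmga2 was 5.89 and 7.17 CPM in O4G, 4.35 and 3.10 CPM in R1-Clone3 and 3.63, 1.31 and 1.87 CPM in R1. The O4G values lay above those of both R1 lines, with 25 and 16 reads behind them, and with 2 or 3 libraries per line no order was tested. In R9, with 1 library per line, R1 had 7 reads and O4G 0.

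**Figure D1:**
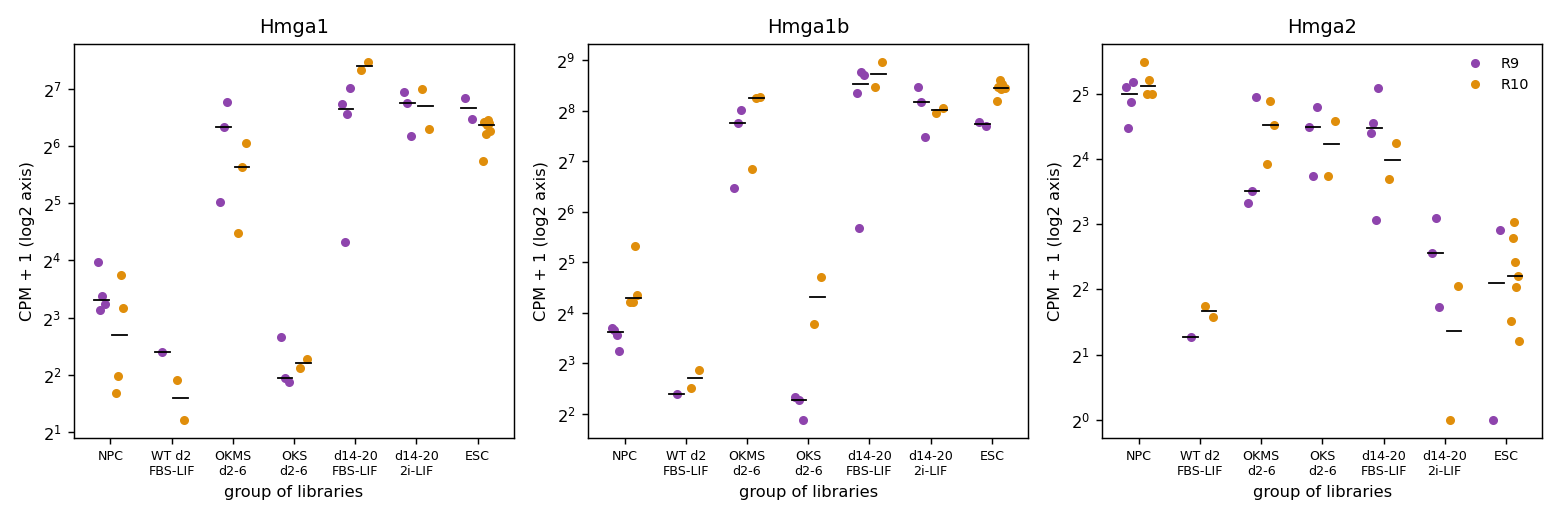
Level of Hmga1, Hmga1b and Hmga2 (CPM + 1, log2 axis) in each library by group, with R9 and R10 side by side; points are libraries and black bars are medians. Hmga1 and Hmga1b are low in progenitors and in wild-type and OKS cells of the first days and higher in OKMS cells of the same days, in cells of days 14 to 20 (with R9 OKS day 14 lowest among these) and in stem cells (ESC), while Hmga2 has its highest medians of the groups drawn in progenitors (NPC, 31.0 to 43.9 CPM in R10) and is low in stem cells, in 2i-LIF and in wild-type cells in FBS-LIF.

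OKMS and OKS cells parted early in Hmga1 and Hmga1b and met again late. In R9 the sum in OKMS cells was 119.8 CPM at day 2, 294 at day 4, 366 at day 6, 369.9 at day 10, 432 at day 14 and 527 at day 20. In OKS cells it was 9.36 CPM at day 2, 6.68 at day 4, 5.36 at day 6, 29.0 at day 10, 69.5 at day 14 and 544 at day 20. In the same libraries the summed pluripotency genes were at 37.3 to 1187 CPM (OKMS) and 29.4 to 41.0 CPM (OKS) up to day 6, at 5639 and 100.4 CPM at day 10, 9245 and 605 CPM at day 14, and 9039 and 7661 CPM at day 20, and the progenitor genes at 353 to 2806 and 818 to 5215 CPM up to day 6 and at 17.2 to 149 and 55.3 to 489 CPM later. Mitochondrial genes took 0.707, 0.523, 0.525, 0.430, 0.336 and 0.430% of reads in OKMS at days 2, 4, 6, 10, 14 and 20. In OKS they took 0.726, 0.748, 0.838, 0.989, 0.570 and 0.387% on the same days. The part of all these genes in the Hmga1 levels was not tested. Every induced OKMS library up to day 14 lay above every OKS library up to day 14, and the last day of OKS reached the OKMS level. The uninduced cells of both systems were alike, at 20.2 CPM (OKMS) and 16.9 CPM (OKS) in R9 and at 19.8 and 20.4 CPM in R10.

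The ratio of OKMS to OKS for the sum was 12.8 at day 2, with a 95% exact counting interval from 6.00 to 32.6. It was 44.1 at day 4 (20.8 to 112), 68.3 at day 6 (26.4 to 252), 12.8 at day 10 (7.33 to 24.3) and 6.21 at day 14 (4.90 to 7.95). At day 20 it was 0.969 (0.858 to 1.09), which includes equal levels. These intervals cover counting error only. For the R10 ratios given next, reads of PCR libraries are also not independent molecules. The OKS libraries of days 2, 4 and 6 held 7, 7 and 4 reads of the sum, so the size of the ratio on those days is poorly known, although its lower bound stays at 6.00 or more.

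R10 gave the same order with other libraries. OKMS cells had 136 CPM of the sum at day 2, 353 at day 4, 374 at day 6, 246 at day 10 and 512 at day 18, and OKS cells 16.0 at day 2, 29.0 at day 6 and 676 at day 18. The ratio was 8.47 at day 2 (6.03 to 12.1), 12.9 at day 6 (9.97 to 16.9) and 0.757 at day 18 (0.659 to 0.869). At day 18 the OKS library had the higher level, with 1 library each and intervals that take PCR reads as independent. Over the 6 R9 days the mean log2 difference was 3.48 ± 0.55 (SE) for the sum, 2.84 ± 0.52 for Hmga1 and 3.69 ± 0.57 for Hmga1b, with day as a block. The mean hides unlike days, since for the sum it was 4.89 over days 2, 4 and 6 and 2.07 over days 10, 14 and 20.

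Hmga2 did not part in this way. In R9 OKMS cells it was 9.04 CPM at day 2, 10.4 at day 4, 30.02 at day 6, 29.5 at day 10, 20.0 at day 14 and 7.39 at day 20. In OKS cells it was 21.4, 12.4, 26.8, 17.8, 22.3 and 33.1 CPM on the same days. The ranges of both systems overlapped, and the mean difference was −0.45 ± 0.35 (log2, SE), or −0.14 without day 20 and −0.68 without day 10. Day 20 had the widest gap, with OKMS at 0.224 times OKS (counting interval 0.0780 to 0.525). In R10 the ratio was 1.42 in uninduced cells (1.01 to 2.02), 1.16 at day 2, 0.958 at day 6 and 0.662 at day 18, the induced days each with an interval that includes 1. The highest Hmga2 level of all 45 libraries was 61.9 CPM in R10 OKMS cells at day 10, where the R9 library of the same condition had 29.5 CPM.

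**Figure D2:**
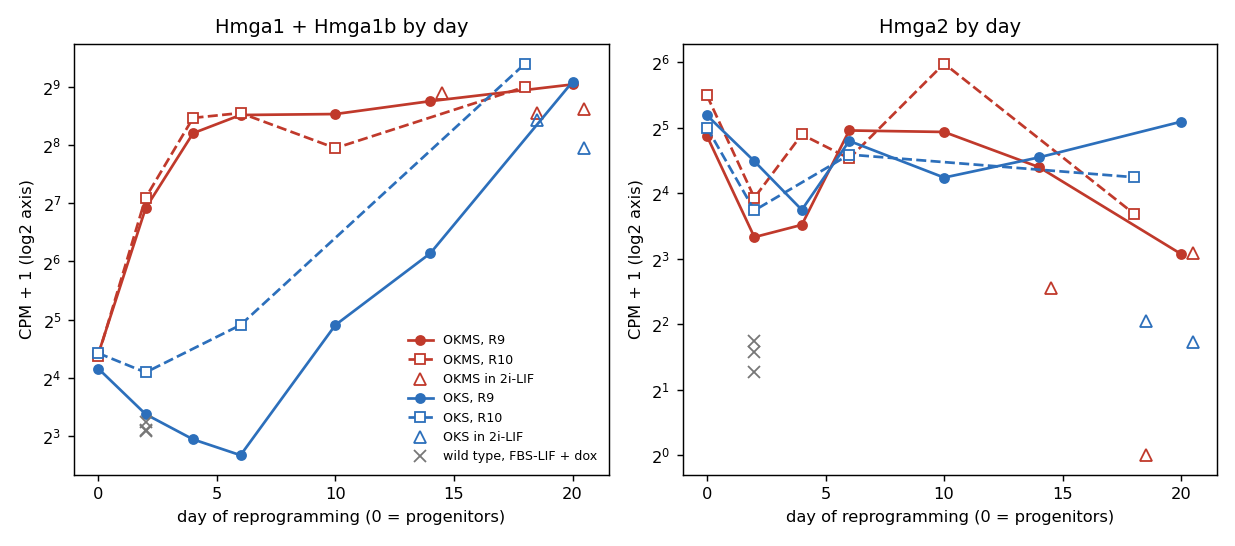
Summed Hmga1 and Hmga1b (left) and Hmga2 (right), CPM + 1 on a log2 axis, against the day of reprogramming for OKMS (red) and OKS (blue), R9 filled and R10 open, with cells in 2i-LIF as triangles (drawn slightly to the right of their day) and wild-type cells in FBS-LIF as crosses. The OKMS and OKS lines of the sum separate at day 2 (119.8 against 9.36 CPM in R9) and meet at day 20 (527 against 544 CPM), whereas the Hmga2 lines cross.

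Relative to day 0, with OKMS or OKS as an additive term, the R9 sum was higher by 0.86 at day 2, by 2.44 at day 10 and by 4.78 at day 20 (log2, SE 1.16). Without day 20 the largest difference was 3.17, at day 14. Hmga1b reached 5.34 ± 1.21 at day 20 and Hmga1 3.48 ± 1.06. Hmga2 was lowest at day 4, at −1.40 ± 0.58. These values average both systems, whose early courses were unlike for the sum. At day 2 the sum was 5.93 times its day 0 level in OKMS (counting interval 3.44 to 11.0). In OKS it was 0.555, 0.396 and 0.318 times day 0 at days 2, 4 and 6, each with an interval that includes 1. Since levels by day chose the genes, no p is given for them, and nothing is read from the 10.7% of 19357 genes called in this fit.

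Whether the factors together change the genes at day 2, when medium and day are the same, was examined in R10 with OKMS and OKS (1 library each) against 2 wild-type libraries in FBS-LIF with doxycycline. The wild-type libraries had 7.44 and 7.58 CPM of the sum and 2.35 and 1.98 CPM of Hmga2. The sum was 136 CPM in OKMS and 16.0 CPM in OKS, and Hmga2 14.2 and 12.3 CPM, so both factor-carrying libraries lay above both wild-type libraries for the sum and for Hmga2. Mitochondrial genes took 0.319 and 0.165% of reads in these wild-type libraries, 1.51% in OKMS and 1.64% in OKS, and the part of this in the result was not tested. The log2 difference was 2.51 ± 0.82 (SE) for the sum, 1.74 ± 0.80 for Hmga1, 2.63 ± 0.85 for Hmga1b and 2.17 ± 0.59 for Hmga2. These libraries are among those whose levels chose the genes, so no p is given. Without the OKMS library the difference was 1.00 for the sum, 0.57 for Hmga1 and 1.09 for Hmga1b, and without the OKS library it was 4.01, 2.92 and 4.17, whereas Hmga2 kept to 2.08 to 2.27 without any 1 library. Of all 15402 genes, limma called 0.740% (0.714% higher, 0.0260% lower; 110 and 4 genes, or 289 and 110 with median centring), from which nothing is read about the 3 genes.

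For Hmga2 the 2 factor systems were close together at day 2 in R10, whereas for the sum OKMS stood far above OKS. In R9 at day 2 wild-type cells again had less Hmga2 (1.41 CPM) than OKMS (9.04 CPM) and OKS (21.4 CPM), but here OKMS was at 0.423 times OKS (0.157 to 1.05, from 8 and 16 reads). The R9 sum at day 2 was 8.49 CPM in wild type, 9.36 CPM in OKS and 119.8 CPM in OKMS (6, 7 and 106 reads). OKS was thus close to wild type for the sum in R9.

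In the wild-type cells themselves, 2 days under FBS-LIF and doxycycline went with lower levels of all 3 genes. The R10 libraries had 27.5 and 51.4 CPM of the sum in progenitor medium and 7.44 and 7.58 CPM in FBS-LIF (−2.19 ± 0.39, log2 difference ± SE, n = 2 and 2). Hmga2 was 31.0 and 36.2 CPM in progenitor medium and 2.35 and 1.98 CPM in FBS-LIF (−3.45 ± 0.36). For both measures the 2 media did not overlap. In this contrast 3940 of 14688 genes were called, so with 2 libraries on each side the separation alone does not set the genes apart. In R9, 2 libraries in progenitor medium had 19.4 and 26.7 CPM of the sum and 21.3 and 33.4 CPM of Hmga2, and the 1 library in FBS-LIF had 8.49 and 1.41 CPM, the latter from 1 read. The change of medium, the doxycycline and the passage of 2 days cannot be told apart in this design.

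Cell cycle genes were low in wild-type and OKS cells of the first days. The summed CPM of 7 cell cycle genes (Mki67, Top2a, Ccnb1, Ube2c, Cenpa, Pclaf and Pcna) was 1968 to 2580 in the progenitors of both chemistries, 25.5 to 45.0 in wild-type cells at day 2 in FBS-LIF, 270 to 469 in OKS cells and 1136 to 2370 in OKMS cells of days 2 to 6, and 2218 to 2985 in stem cells. Their part in the Hmga results was not tested. The summed CPM of 5 astrocyte genes was 1650 to 4154 in wild-type cells at day 2 in FBS-LIF, and 977 to 1698 in OKS and 55.6 to 742 in OKMS cells of days 2 to 6. In R9 the astrocyte genes were at 1153 CPM in OKS and 191 CPM in OKMS cells at day 10 and at 456 and 109.7 CPM at day 14, and the cell cycle genes at 359 and 1958 CPM and then 1485 and 2432 CPM. The part of either list in the OKMS to OKS ratios was not tested. In these bulk libraries fewer cells with a gene and less of its RNA per cell cannot be told apart.

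Cells in 2i-LIF mostly had less Hmga2 and a lower Hmga1 sum than cells of the same system, day and chemistry under FBS-LIF and doxycycline. The 5 pairs are R9 OKMS at days 14 and 20, R9 OKS at day 20, and R10 OKMS and OKS at day 18. No doxycycline is named for the 2i-LIF cells, so the medium and doxycycline cannot be told apart in these pairs. This holds for every 2i-LIF against FBS-LIF comparison below. Hmga2 was 4.89 against 20.0 CPM, 7.52 against 7.39, 2.33 against 33.1, 0 against 11.9 and 3.13 against 17.9 CPM, 2i-LIF first. It was lower in 2i-LIF in 4 of the 5 pairs, and R9 OKMS at day 20 was low in both media. The 0 reads of R10 OKMS in 2i-LIF allow up to 5.29 CPM. The mean difference was −2.21 ± 0.51 (log2, SE). The summed astrocyte genes were lower in 2i-LIF in these pairs too (10.5 to 21.2 CPM against 39.4 to 109.7 CPM), the 6 mesenchymal genes were at 22.1 to 32.8 against 17.8 to 106 CPM, and the pluripotency genes at 9343 to 15210 against 5370 to 15136 CPM. Their part in the result was not tested.

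The sum in the same pairs was 476 against 432 CPM, 394 against 527, 248 against 544, 376 against 512 and 344 against 676 CPM. It was lower in 2i-LIF in 4 of the 5 pairs, the exception being R9 OKMS at day 14, and the ratio of FBS-LIF to 2i-LIF in the OKS pairs was 2.19 (1.88 to 2.57) in R9 and 1.96 (1.68 to 2.31) in R10. Hmga1b was lower in the same 4 pairs, and Hmga1 in 3, being higher in 2i-LIF in both R9 OKMS pairs (122 against 106 CPM at day 14, 106 against 93.6 CPM at day 20). The mean difference was −0.56 ± 0.18 for the sum, −0.39 ± 0.21 for Hmga1 (−0.20 without the R10 OKS pair) and −0.62 ± 0.18 for Hmga1b. In R9 the 2i-LIF levels of the sum were 248, 394 and 476 CPM, and the stem cells, grown in the same medium, had 294 and 330.4 CPM. In R10 they were 376 and 344 CPM, and the stem cells had 345 to 460 CPM.

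Relatives and regulators were taken from 4 lists of genes. The list of 15 other high-mobility-group genes and HMG-box factors had 6 called between R10 stem cells and progenitors, beside the 45.8% of all genes. Hmgb2, an HMG-box protein of dividing cells, was higher (766 against 358 CPM in the mean, log2 difference 1.07). It was the only listed gene called higher. That call was lost in R9, with only the R1 library without an n number as stem cells, and without R1-Clone3 replicate 1. Hmgn3 (2.87 against 177 CPM, −5.70), Hmgn2 (−2.38), Hmgb3 (−1.95) and Hmgn5 (−1.94) were among those lower, and the median of the list was −0.03 beside 0.01 for all genes. Hmgn proteins bind nucleosomes rather than AT-rich DNA. Between OKMS and OKS, 2 of 15 were called (Hmgb2 higher by 1.43, Hmgn3 lower by 1.14) where 18% of 14277 genes were (990 higher and 1575 lower, or 1438 and 1234 with median centring). Neither call was made in R10 or without the day block, fits that called 0 of 15135 and 2 of 14277 genes in all. The call of Hmgn3 was also lost with median centring, with edgeR, over days 2, 4 and 6, and without day 10 or day 14. That of Hmgb2 was lost over days 10, 14 and 20, where 125 of 15126 genes were called. Between 2i-LIF and FBS-LIF, 2 of 15 were called, both lower (Hmgn5 −1.47, Hmgxb4 −1.24), where 12.3% of 14935 genes were (5.95% higher, 6.32% lower), and 1 without the R9 OKS pair. Over the other alternatives of processing and of pairs the count ran from 0 to 3.

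Of 11 listed genes of let-7 processing in the table, 4 were higher in stem cells than in progenitors and 0 lower, where 22.4% and 23.5% of all genes were called higher and lower (3452 and 3615 genes, or 4196 and 3013 with median centring, which left the list at 4 and 0). Lin28a, an RNA-binding protein that blocks let-7 maturation, had 7.47 to 22.1 CPM in R10 stem cells and was at 0 reads in all 4 progenitor libraries. Its relative Lin28b was at 0.656 to 3.87 CPM and at most 1.27 CPM, that is near the detection limit in both. Drosha, the nuclear enzyme that cuts primary miRNAs, was at 140 against 64.4 CPM, and Ago2, an Argonaute protein, at 28.6 against 11.8 CPM (log2 differences 1.09 and 1.2). The median of the list was 0.34. Without the OKS progenitor library 2 were called, and without the wild-type progenitor replicate 3 the count was 3 higher and 1 lower. In R9, 10 were tested, with 1 called higher and 1 lower, where 2775 and 2896 of 15746 genes were.

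Between OKMS and OKS, 0 of the 10 processing genes tested were called by limma, where 18% of all genes were, with 3 at an unadjusted p under 0.05, and edgeR called 0 and DESeq2 1. Between 2i-LIF and FBS-LIF, 2 of 11 were called, both lower, where 12.3% of all genes were called (6.32% lower), and 1 without either OKS pair. Lin28a had 0 to 7.33 CPM in 2i-LIF and 46.0 to 117 CPM in FBS-LIF (−5.15), and Lin28b 1.56 to 3.53 and 4.45 to 32.0 CPM (−1.89). In this contrast Hmga2 was lower in 2i-LIF too, except in R9 OKMS at day 20. There Hmga2 was low in both media (7.52 CPM in 2i-LIF, 7.39 CPM in FBS-LIF), though Lin28a was at least 46.0 CPM in every FBS-LIF library. Lin28a was high in stem cells relative to progenitors, where Hmga2 was low.

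The list of 16 let-7 targets other than Hmga2, which shares Lin28a and Lin28b with the list above, had 10 members higher and 2 lower in stem cells, against the 22.4% and 23.5% of all genes, with a median of 1.68 (11 and 2 with median centring). Igf2bp1, an oncofetal mRNA-binding protein, was at 338 to 807 CPM against 1.75 to 23.8 CPM (5.52), and Mycn, a Myc family factor, at 38.7 to 87.6 against 1.91 to 5.16 CPM (3.86). Trim71, an embryonic let-7 target that was named after its values were seen, was at 17.9 to 34.0 against 0.584 to 1.59 CPM. The G1 cyclins went the other way, Ccnd2 from 1404 to 1529 CPM in progenitors to 0 to 9.71 CPM in stem cells (−9.28), and Ccnd1 by −1.96. Hmga2 moved with these cyclins and opposite to the other 10.

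Between OKMS and OKS 5 of 15 targets tested were called, 4 higher (Igf2bp3 1.94, Hic2 1.59, Igf2bp1 1.52, Igf2bp2 1.06) and Ccnd2 lower (−1.86), where 6.93% and 11.0% of all genes were called higher and lower. The count was 0 in R10 and without the day block, 1 (lower) over days 10, 14 and 20, 2 without day 6, and 3 without day 10 or day 14. Of all genes, 0 of 15135 were called in R10, 2 of 14277 without the day block and 125 of 15126 over days 10, 14 and 20. A count of 0 there thus says little about the list. Between 2i-LIF and FBS-LIF 3 of 16 were called (12.3% of all genes, 6.32% lower), all lower, Lin28a and Lin28b as above and Ccnd2 (10.1 against 375 CPM, −4.73). Of the let-7 host genes 3 were in the table. The long noncoding RNAs Mir100hg and Mir99ahg were lower in stem cells (0.519 against 59.1 CPM and 0.0640 against 8.26 CPM in the mean) and lower in OKMS than in OKS (−1.80 and −1.73). In 2i-LIF Mir100hg was lower than in FBS-LIF (0.313 against 12.3 CPM in the mean, −2.99), 1 of the 2 host genes tested, where 12.3% of all genes were called. It was not called in the R10 pairs alone, where 188 of 15446 genes were. Huwe1, which hosts let-7 members in an intron, was called in none of these main comparisons (OKMS against OKS 0.66, limma adjusted p = 0.0356, under 1 log2 unit). But all 3 host genes were called over days 2, 4 and 6 (1 higher, 2 lower, where 2649 of 14659 genes were). None was called in R10, over days 10, 14 and 20 or without the day block, the fits with few or no calls given above. Mature let-7 was not measured by these libraries.

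Genes whose level followed the Hmga1 sum most closely were sought among 9251 named genes with a mean of at least 10 CPM in R9. Over the 22 R9 libraries the highest Pearson correlations of log2(CPM + 1) with the sum were those of Cdh1 (r = 0.952), which encodes the epithelial adhesion protein E-cadherin, Tfap2c (0.952), a transcription factor of early lineages, Prelid2 (0.95), Siva1 (0.948) and Dqx1 (0.946). Over the 23 R10 libraries r was 0.931, 0.913, 0.912, 0.954 and 0.909. For Hmga2 the highest were Mmadhc (0.805), Phf6 (0.804), Ahi1 (0.799), Cdc123 (0.792) and Spry2 (0.792), an inhibitor of receptor tyrosine kinase signalling, and these fell to 0.635 to 0.741 in R10. The sum and Hmga2 correlated at −0.25 in R9 and −0.23 in R10. All of these correlations share libraries and depth, and they were read from a ranking, so they are a description.

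The 2 chemistries divided the Hmga1 reads differently between the twin genes. Over 12 conditions present in both, with condition as a block, Hmga1 was lower in R10 than in R9 by 0.61 ± 0.16 on the log2 scale (limma, adjusted p = 0.00268; lower in 11 of 12 conditions). Hmga1b was higher by 0.80 ± 0.17 (adjusted p = 3.78e-04; 11 of 12). The sum moved by 0.39 ± 0.15 (adjusted p = 0.0396; 9 of 12), and Hmga2 by 0.37 ± 0.25 (adjusted p = 0.258; 7 of 12). No member reached 1 log2 unit, so 0 of 3 were called, where 10.5% of 18349 genes were (5.77% higher, 4.73% lower), with 2 of 3 at an unadjusted p under 0.05 and 0 called by edgeR and by DESeq2. Leaving out any of 6 of the 12 conditions in turn took the sum to an adjusted p of 0.0502 to 0.0986, and it was smallest, at 0.25, without day 6 of OKS.

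**Figure D3:**
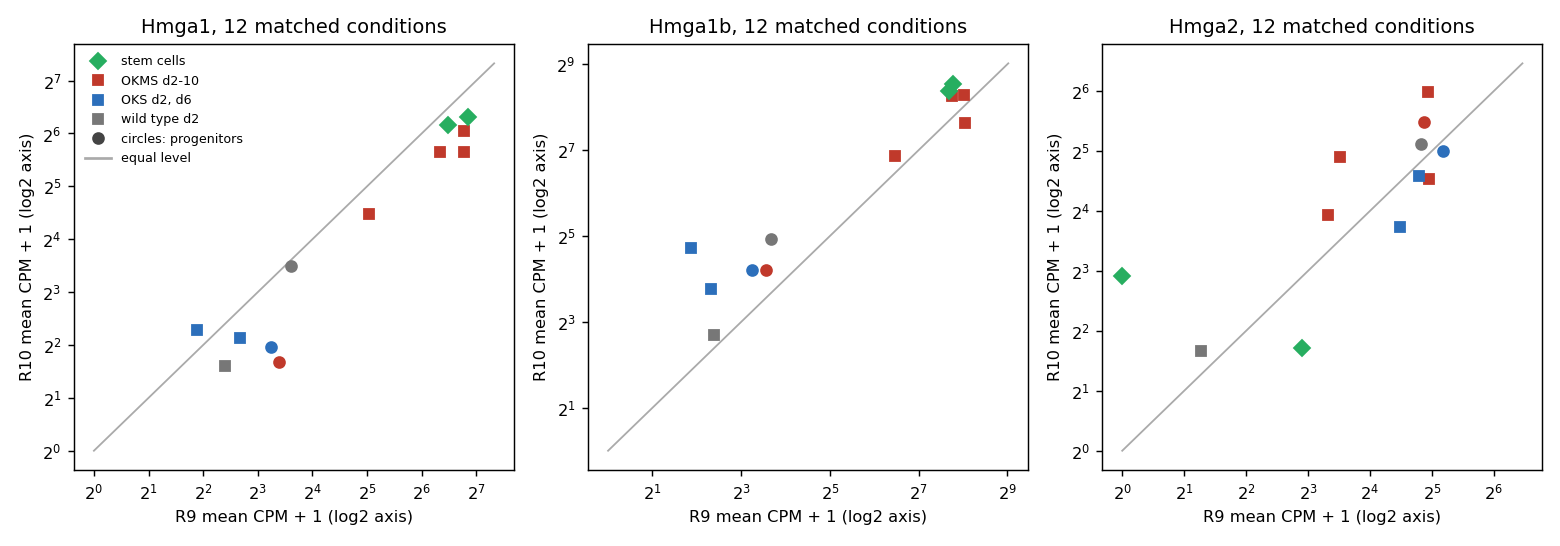
Mean level (CPM + 1, log2 axes) in R10 against R9 for each of 12 conditions present in both chemistries, for Hmga1, Hmga1b and Hmga2, with the grey line marking equal levels. Hmga1 lies under the line in 11 of 12 conditions and Hmga1b above it in 11 of 12, while Hmga2 lies on both sides.

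In libraries with at least 100 CPM of the sum, Hmga1b took 73.0 ± 4.08% of the reads in R9 (SD, n = 12) and 79.5 ± 5.79% in R10 (SD, n = 15). In R9 libraries under 100 CPM it took 55.0 ± 9.82% (n = 10), with few reads behind each, and in the R10 libraries under 100 CPM 79.1 ± 8.81% (n = 8). The level of 1 of the twins alone thus differed more between the chemistries than the sum did. In R9 the share also differed between libraries under and over 100 CPM. Those under it were progenitors, wild-type cells at day 2 and OKS cells up to day 14, so level and cell state cannot be told apart. Reads of the deposited antisense gene at the Hmga1b locus, given at the end, are not part of these shares.

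The transcript table, in TPM, placed most of the pair at Hmga1b as well. There a long-form transcript without introns, a full-splice match of the reference, held 62.6% of the gene's TPM over all libraries. Another (32.8%) had the same end and lacked exactly the 33 bases shown above, which the deposited annotation thus treats as an intron of Hmga1b, and a shorter one (4.53%) also lacked them and ended at 120763194. Whether these are Hmga1 reads placed at Hmga1b was not tested, and every share of a form at 1 of the genes alone carries that doubt. In the genome, 55% of the bases just after the end of the first pair are A, against 20% after the 2 most abundant Hmga1 transcripts, per the deposited classification. At Hmga1, 14 transcripts were of the long form and 12 of the short, the most abundant being a short one with 18.9% and a long one with 17.4% of the gene's TPM.

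Some transcripts with an earlier 3′ end had higher means in R10. Those of Hmga1 that ended at 27561512, the most abundant of which were a long one (13.3% of Hmga1 TPM) and a short one (9.65%), had R10 means of 11.4 and 7.63 TPM and R9 means of 0.434 and 0.935 TPM. The Hmga1b transcript ending at 120763194 had means of 17.4 TPM in R10 and 1.64 TPM in R9. Others went the other way. An Hmga1 transcript ending at 27561112 had means of 0.150 TPM in R10 and 0.499 TPM in R9. The Hmga2 transcripts that ended before the 3′ UTR of the reference also had lower means in R10. These means are over all libraries of a chemistry, whose conditions differ, and were not tested.

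The short form was the minor form of both genes together in every library with at least 100 CPM of the sum, where its share of the summed TPM was 40.1 ± 5.29% in R9 (SD, n = 12, 32.1 to 47.7%) and 36.9 ± 8.48% in R10 (SD, n = 15, 21.5 to 48.1%). In stem cells it was 38.8 and 44.5% in R9 and 31.9 to 48.1% in R10, and in R10 progenitors 31.1 to 40.9%, so these groups overlapped. OKMS cells in FBS-LIF had 32.7 to 47.7% in R9 and 26.9 to 45.6% in R10. The 2 lowest shares among the libraries of at least 100 CPM were those of the 2 R10 libraries in 2i-LIF at day 18 (21.5 and 24.4%), where the 3 R9 libraries in 2i-LIF had 32.1 to 38.7% and the stem cells in the same medium more. At the Hmga1 gene alone, the short form took 12.5 and 14.9% in these R10 libraries and 37.3 to 53.4% in R10 stem cells. These R10 libraries had 30 and 21 reads on Hmga1 transcripts, 5 and 3 of them of the short form. In the R9 libraries in 2i-LIF the same share ran from 23.3 to 55.6%. In R9 progenitors the share ran from 20.8 to 72.1%, on 8 to 18 reads placed on transcripts per library.

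Within OKMS cells in FBS-LIF the short form at the Hmga1 gene was more prominent in the first days. In R9 its share of Hmga1 TPM was 57.1% at day 2, 50.6% at day 4 and 63.8% at day 6, and then 39.5% at day 10, 43.3% at day 14 and 44.5% at day 20. In R10 it was 74.5, 55.4 and 65.6% at days 2, 4 and 6 and 36.3 and 41.3% at days 10 and 18. Early and late days did not overlap in either chemistry, a pattern seen in the values and not tested, with 15 to 45 reads on Hmga1 transcripts in each early library and 37 to 62 in each late one. At Hmga1b the early and late shares overlapped in R9 (39.4 to 46.9% and 31.1 to 44.6%) and not in R10 (39.1 to 42.4% and 24.6 to 28.4%).

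**Figure D4:**
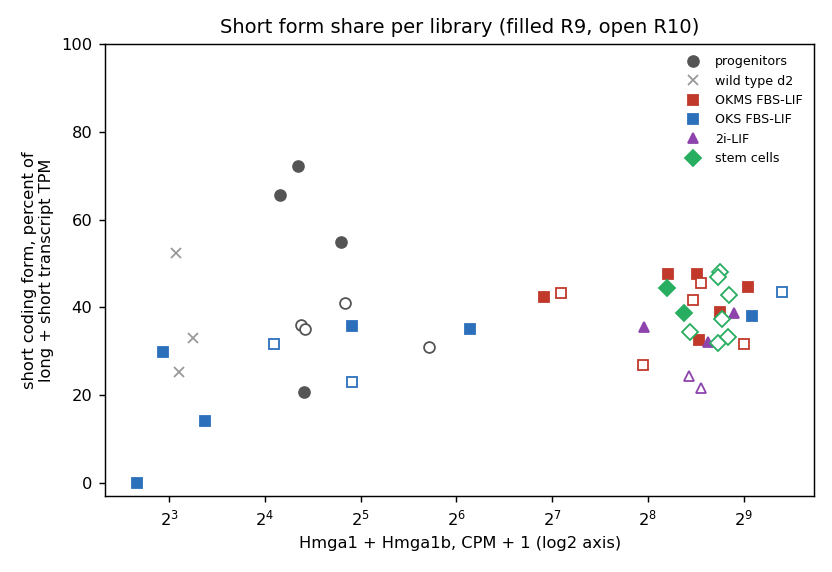
Share of the short coding form in the summed long and short transcript TPM of Hmga1 and Hmga1b (percent) against the summed level (CPM + 1, log2 axis) in each of the 45 libraries, R9 filled and R10 open. Libraries of at least 100 CPM lie between 21.5 and 48.1%, and the spread widens at low levels, where few reads were behind each share.

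Between chemistries, the share of the most abundant transcript of each gene was compared over matched conditions with an exact two-sided sign-flip permutation test. The most abundant Hmga1 transcript took 13.1% in R9 and 25.4% in R10 (12.4 points higher, in 10 of 12 conditions, adjusted exact p = 0.0410), a call lost when any of 10 conditions was left out. For wild type at day 2 and OKS at days 2 and 6 the R9 share was 0%, on 3, 3 and 2 reads on Hmga1 transcripts. The R10 shares of these conditions were 38.2, 20.4 and 11.5%, on 2 to 6 such reads per library. With all full-splice matches pooled the R10 minus R9 difference was −11.3 points for Hmga1 (adjusted exact permutation p = 0.41) and −18.7 points for Hmga2 (likewise 0.41). That of Hmga1b took 69.1 and 66.4% (adjusted exact p = 0.517). That of Hmga2 took 27.6 and 42.0% over the 8 conditions with Hmga2 TPM in both (adjusted exact permutation p = 0.0938). For OKMS at days 4 and 6 its share was 0% in both chemistries, so these conditions could not inform the test.

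Few Hmga2 reads were placed on a transcript. Deposited TPM times transcript length was a whole multiple of 1 read in every library, so the values correct for length and the reads behind them can be counted. Transcripts held 90 of 321 Hmga2 reads in R9 (28.0%) and 163 of 728 in R10 (22.4%), against 52.5 and 57.9% of the Hmga1 reads and 87.6 and 92.4% of the Hmga1b reads. On the TPM scale R10 progenitors had 10.00 ± 2.77 TPM of Hmga2 and 34.1 ± 14.2 TPM of the Hmga1 sum (SD, n = 4). By CPM the same libraries had 35.5 ± 6.13 of Hmga2 and 29.8 ± 14.9 of the sum. The order of these means in progenitors differs between the scales, and reads that were placed on no transcript count only in CPM. In stem cells the sum was the higher on both (0.752 ± 0.433 TPM of Hmga2, n = 7).

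The 12 deposited Hmga2 transcripts ended at different points of the 3′ UTR. The most abundant (36.8% of Hmga2 TPM over all libraries, a transcript outside the reference with a predicted coding part of 129 bases) ended at 120362862 and held the first 2 of the 4 let-7 matches shown above. The 3 transcripts with all 4 matches made up 17.0% of TPM, the 2 with 1 match 5.19%, and the 6 that ended before the 3′ UTR of the reference and held none 41.0%. TPM divide reads by transcript length, and the 3 with all matches are 3170 to 4329 bases long, the 6 with none 1009 to 1847. Long transcripts thus weigh less here than among reads, and these are not shares of reads or molecules. The matches lie 21, 1258, 1696 and 2554 bases after the stop codon. Each of these transcripts had few TPM in any library, 202 TPM over all 45 libraries and all 12 transcripts, so no difference between groups was sought.

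**Figure D5:**
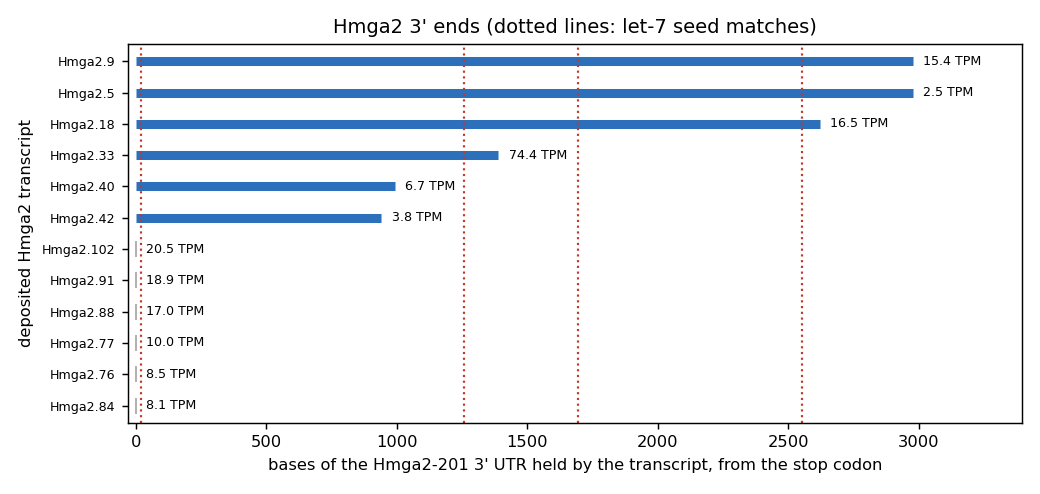
How far each of the 12 deposited Hmga2 transcripts reaches into the 3′ UTR of the full-length reference (bases from the stop codon), with its TPM summed over 45 libraries beside the bar and the 4 let-7 seed matches as dotted lines. The most abundant transcript, with 74.4 TPM, passes 2 matches, and grey ticks mark the 6 transcripts that end before this UTR.

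Myc, present in OKMS and not in OKS by name, binds the E-box CACGTG, which reads the same on both strands. In the RefSeq windows around annotated start sites (GRCm38.p6) it occurred in 0 of 2 windows of Hmga1, 0 of 1 of Hmga1b and 0 of 1 of Hmga2, and in 7.15% of all 32851 windows. These letters are thus not in these short windows, which says nothing of sites elsewhere.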

How the data were processed

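The authors deposited 2 tables whose names refer to IsoQuant, 1 with genes in CPM and 1 with transcripts in TPM. Per the submitters' processing notes, reads were aligned with minimap2 2.24-r1122 and the build was mm10. Other steps are not given in the sources used here. Per the file headers, the transcript classification follows SQANTI3. Use of strand in counting is not given, which leaves the antisense gene at Hmga1b uncertain. The gene table held 13 further per-sample columns that matched no sample and were not used.

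In every library 100% of CPM values were whole multiples of 1 step within 0.02 reads, which gave reads and depth, and likewise 100% of TPM values times transcript length. Members and gene lists were chosen with earlier results of these data known, so the day course and day 2 factor differences of the members, planned as tests, are given without p. Tests used limma 3.58.1 (R 4.3.3; lmFit, eBayes with trend) on log2(CPM + 1), which understates changes of low genes, over all genes with at least 1 CPM in as many libraries as the smaller arm (2 in the day course, 5 between chemistries), two-sided, with Benjamini-Hochberg adjustment. A call needed an adjusted p under 0.05 and 1 log2 unit. The sum was fitted as a further row. Named genes were the members, the 5 genes of most similar pattern, up to 4 called genes per list and comparison with the largest differences, and transcripts with at least 10% of a gene's TPM in a group (at most 6 a gene); Hmgb2 in stem cells, Trim71, Ccnd1, Igf2bp2, Huwe1 and some transcripts were named beside these after their values were seen. Alternatives were a pseudocount of 0.25, other filters, quantile normalization, median centring, edgeR 4.0.16 and DESeq2 1.42.0 on recovered reads, other arms and blocks, and leaving out each library, day, pair or condition. Scripts were tested on simulated data. Coding parts, seeds and 3′ ends were read from GENCODE vM21 transcripts and RefSeq tables; 3 of 3 members matched both. The values of 1 listed gene are not reported here.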

Additional observations from a re-analysis of the deposited data

Results flagged for a closer look

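The R9 progenitors, R10 progenitors and R10 stem cells (4 to 7 libraries each) were searched for a library far from the others. The measures were the 3 genes, the Hmga1 sum and the share of the short form. Of 15 combinations of group and measure 3 held such a library, and chance gives about 1 in 20 such cases. The wild-type replicate 2 of the R10 progenitors had 39.1 CPM of Hmga1b, where the other 3 had 17.5 to 19.5 CPM. The R1 stem cell library without an n number had 52.7 CPM of Hmga1 and 345 CPM of the Hmga1 sum, where the other 6 R10 stem cell libraries had at least 73.0 and 425 CPM. The OKMS to OKS ratio of the sum was 0.969 at R9 day 20 and 0.757 at R10 day 18 and above 1 at every earlier day after induction, and this difference between days was not tested. A deposited antisense gene at the Hmga1b locus reached 105 CPM in R9 stem cells and 53.8 CPM in R10 stem cells and at most 4.76 CPM in progenitors. In libraries with at least 100 CPM of the sum it had 28.9 ± 13.0 reads per 100 reads of Hmga1b in R9 (SD, n = 12) and 13.1 ± 2.29 in R10 (SD, n = 15), and without stated strand its reads cannot be told apart from those of Hmga1b.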

How the results depend on the processing

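Of 478 alternative values of member results, 434 kept their direction and side of the threshold, or moved by less than the spread between libraries. The directions that turned were Hmga2 in the day course with day 0 left out (0.97 from day 2) and the transcript shares when all full-splice matches were pooled (−11.3 points for Hmga1, −18.7 for Hmga2). In the day course the sum was 4.80 with median centring, 5.91 with edgeR and 5.17 with DESeq2. For the factors at day 2 it was 3.24 with DESeq2. On wild-type medium the sum was −1.32 in R9, and Hmga2 was −3.81 with a pseudocount of 0.25, −3.71 with quantile normalization, −3.60 with median centring, −4.00 with edgeR and −4.02 with DESeq2. With only the R1 library without n number as stem cells, Hmga2 was −3.66.

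Genes called between OKMS and OKS numbered 2565, 0 in R10, 125 over days 10, 14 and 20, and 2 without the day block. Between 2i-LIF and FBS-LIF they numbered 1832, 1166 in R9 pairs and 188 in R10 pairs. For the factors at day 2 they numbered 114, 74 with a pseudocount of 0.25, 181 at a minimum of 5 CPM, 29 with quantile normalization, 399 with median centring, 204 with edgeR, 464 with DESeq2 and 0 in R9. The day course gave 2078, 3487 with edgeR, 318 without the system term and 1366 without day 0, and R10 against R9 1926, 3211 with a pseudocount of 0.25 and 3157 with edgeR. The causes were not tested.

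Leaving out 1 library, day, pair or condition at a time gave these ranges. The counts were 1685 to 3235 (OKMS against OKS, lowest without day 6), 1210 to 1908 (2i-LIF, lowest without the R9 OKS pair), 0 to 115 (factors; 0 without either factor library or wild-type replicate 3) and 601 to 2422 (day course, lowest without day 20). The sum in R10 against R9 was 0.25 to 0.46, and the share of the main Hmga1 transcript was 10.0 to 14.6 points higher.

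The fit of medium on R10 wild-type cells with a replicate block called 5605 genes instead of 3940 and left the differences at −2.19 for the sum and −3.45 for Hmga2. Without the block limma called 1562 in R9, 1141 without FBS-LIF replicate 3 and 0 without any 1 of the other 3 libraries (3300 to 5486 at an unadjusted p under 0.05). Same-numbered libraries deviated together (r = 0.556 over 9301 genes, 2 pairs), but no label says that they shared a culture. Median centring moved the median of all genes from 0.01 to 0.24 in stem cells against progenitors and from −0.11 to 0.05 in OKMS against OKS. Depth limited Hmga1 in early OKS cells and Hmga2 in stem cells to a few reads per R9 library.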
